A study of Mus musculus with 17 samples.

Results

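The regions described here are 500 bp windows of mouse chromosome 10 that carried more 5-hydroxymethylcytosine signal in Sirt6 knockout (KO) than in wild-type (WT) embryonic stem cells. They were selected on measured values. The authors' deposited table lists windows whose KO and WT immunoprecipitation (IP) reads differed at p under 0.001, and the windows on chromosome 10 with a KO IP RPKM (reads per kilobase, scaled to library size) above the WT IP RPKM were kept. This gave 216 windows, out of 2218 windows higher in KO and 3780 listed in all. The IP values chose the windows, so every IP difference below describes that choice and carries no test. The input reads, the positions along the chromosome and the distance to Sirt6 peaks were not used in the choice. IP reads can also depend on how much DNA of a region was present, so the input ratio need not be independent of the choice.

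The 4 libraries compared were KO IP, KO input, WT IP and WT input, each a single library from untreated embryonic stem cells of the 129 strain grown in ES medium. The KO cells lack Sirt6, and the labels do not say how many KO lines or clones were used. Beside them stand a Sirt6 ChIP-seq peak list from untreated WT cells and 8 peak lists for H3K9ac and H3K56ac, from KO and WT cells without or with retinoic acid. With 1 library per group no difference has a replicate check, and the 95% intervals given here cover counting error only. The libraries held 11413874 reads for KO IP, 23924232 for KO input, 13451714 for WT IP and 16623305 for WT input, as implied by the deposited counts and RPKM. Coordinates follow mouse build mm9. Genes and sequences at the windows were not analysed, for want of a genome and annotation of that build.

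5-hydroxymethylcytosine is made from 5-methylcytosine by the Tet dioxygenases and is abundant in embryonic stem cells. Bisulfite turns it into cytosine 5-methylenesulfonate (CMS), and an antiserum against CMS then enriches the DNA that held it, a method named CMS-IP. Input DNA skips the enrichment, so its reads follow how much of a region entered the library. Sirt6 is a NAD-dependent deacetylase of histone H3, and the study asked how its loss bears on Tet-dependent 5-hydroxymethylcytosine.

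Chromosome 10 was dense in higher windows for its length. It held 1.66 of them per Mb, against 0.836 per Mb over the other autosomes, and ranked behind chromosomes 6 (2.24 per Mb) and 11 (2.17 per Mb). It accounted for 9.74% of all higher windows and for 4.93% of the length of chromosomes 1 to 19 and X. Over the whole genome, 0.0719% of the 3084167 windows tested by the authors were listed as higher in KO. How many of the tested windows lay on chromosome 10 is not given by the table. On chromosome 10, 25 listed windows were lower in KO. Over chromosomes 1 to 19 and X this count ran from 9 on chromosome 18 to 519 on chromosome 14.

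Summed over the 216 windows, the KO IP library held 9966 reads and the WT IP library 4594. The input libraries held 7038 reads in KO and 4544 in WT. Scaled to library size, the KO to WT ratio was 2.56 in the IP (exact interval 2.47 to 2.65) and 1.08 in the input (1.04 to 1.12). The windows were chosen for their IP difference and not for their input, so the gap between these ratios follows from the choice. Dividing the IP ratio by the input ratio gives 2.38. Per unit of input, the IP level was 2.97 in KO and 1.25 in WT, so the WT IP of these windows stood little above its own input. The KO IP exceeded the KO input in RPKM in 201 of the 216 windows, and the WT IP exceeded the WT input in 120. The 17 listed lower windows of chromosome 10 outside a stretch with 8 windows without KO reads had an input ratio of 0.704 (0.582 to 0.853). How far the choice on the IP bears on the input ratio was not tested.

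Single windows held few reads. The KO IP count ran from 10 to 144 with a median of 42, and the WT IP count from 0 to 109 with a median of 16. Input counts ran from 1 to 148 in KO (median 27) and from 2 to 84 in WT (median 17). Among the 201 windows with at least 1 WT IP read, the IP ratio was 4 or more in 59 and under 2 in 22. The median of these single-window IP ratios was 2.89.

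The input ratio was not level along the chromosome. In 10 Mb bins, the windows between 10 and 60 Mb had more KO than WT input, and those beyond 60 Mb had equal or less KO input. Bins are numbered from the start of the chromosome, so that bin 2 covers 10 to 20 Mb. The KO to WT input ratio was 1.08 in bin 1 (0.836 to 1.40), 1.24 in bin 2 (1.12 to 1.37), 1.25 in bin 3 (1.10 to 1.43), 1.34 in bin 4 (1.18 to 1.52), 1.20 in bin 5 (1.10 to 1.30) and 1.38 in bin 6 (1.12 to 1.72). It was 0.825 in bin 7 (0.623 to 1.09), 0.826 in bin 8 (0.745 to 0.915), 0.894 in bin 9 (0.791 to 1.01), 0.999 in bin 12 (0.872 to 1.14) and 0.873 in bin 13 (0.768 to 0.993). The interval lay above 1 in bins 2 to 6 and below 1 in bins 8 and 13.

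**Figure D1:**
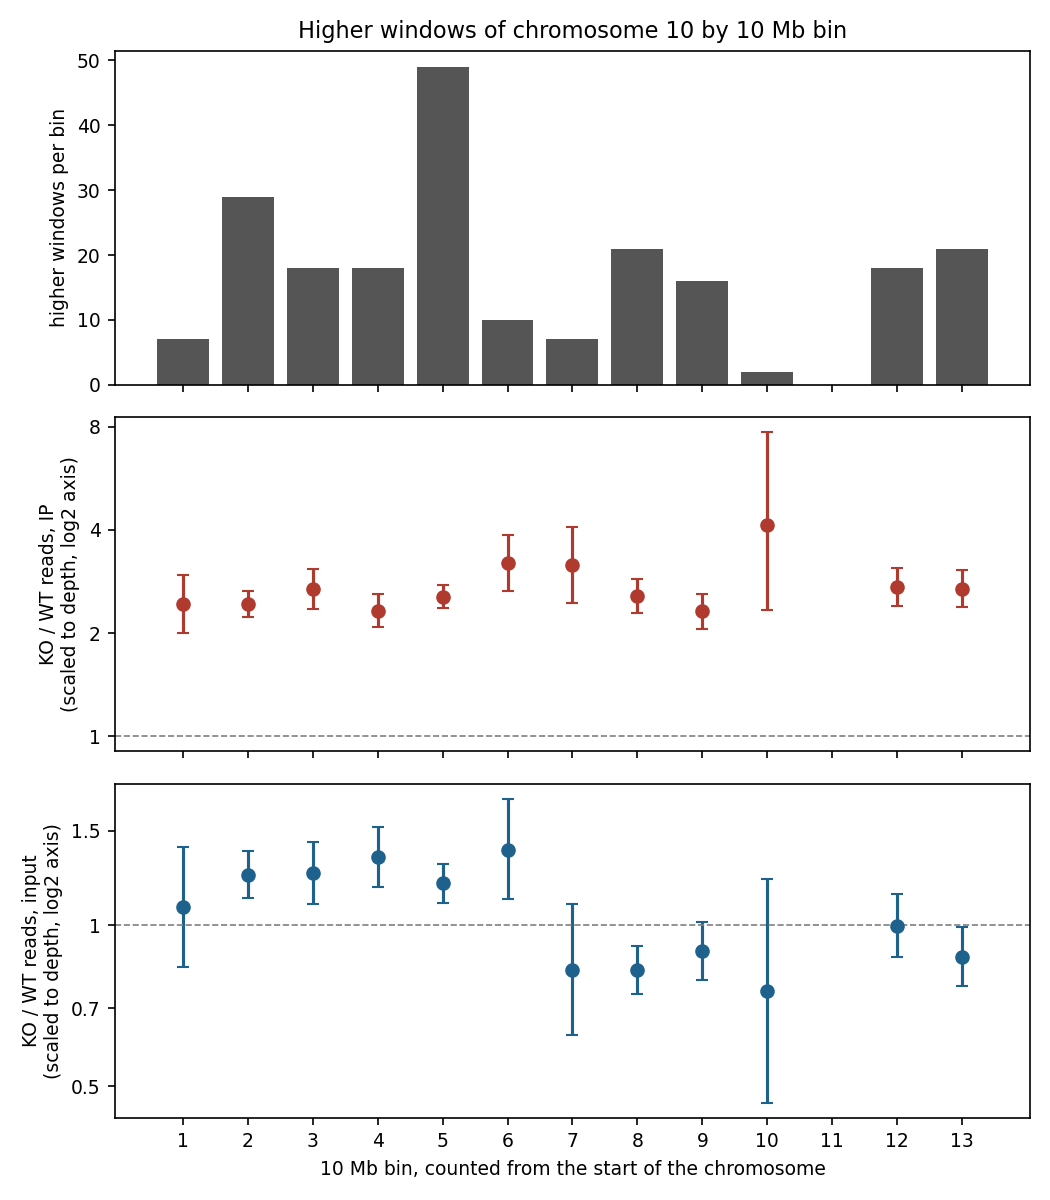
Higher windows of chromosome 10 in 10 Mb bins counted from the chromosome's start. The top panel gives the number of windows, the middle panel the KO to WT ratio of summed IP reads and the bottom panel that of input reads, both scaled to library size on log2 axes with exact 95% intervals. The IP ratio stays between 2.31 and 4.12 in every bin with windows, while the input ratio lies above 1 in bins 1 to 6 and below 1 in bins 7 to 10, 12 and 13.

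Bins 1 to 6 held 131 windows, or 60.6% of them, on 46.2% of the chromosome's length. That is 2.18 windows per Mb, against 1.21 per Mb over the 85 windows of bins 7 to 13. Without bin 5, its fullest bin, the first stretch held 1.64 windows per Mb, still above 1.21. The second held 1.66 per Mb without bins 10 and 11, its emptiest. These bins were picked for their counts after those were seen, so no conclusion is drawn from the near equality of 1.64 and 1.66. Bin 5 alone held 49 windows, bin 2 held 29, and bins 8 and 13 held 21 each. Bin 11 held none, and bin 10 held 2 (input ratio 0.753, with a wide interval of 0.466 to 1.22). The longest stretch without a higher window, 15.0 Mb, ran from 95356500 to 110356001.

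Splitting the chromosome at 60 Mb, a boundary chosen after the bins were seen, gives an input ratio of 1.24 in bins 1 to 6 (4399 KO and 2460 WT reads; 1.18 to 1.31) and 0.880 in bins 7 to 13 (2639 KO and 2084 WT reads; 0.830 to 0.932). The first is 1.41 times the second (1.31 to 1.52). Window by window, the KO input exceeded the WT input in 100 of 131 windows of bins 1 to 6, or 76.3% (Wilson interval 68.4% to 82.8%), and in 30 of 85 windows of bins 7 to 13, or 35.3% (26.0% to 45.9%). The IP ratio, a value that the choice of windows used, was 2.53 in bins 1 to 6 and 2.61 in bins 7 to 13.

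Since the choice held the IP ratio near one level in both stretches, the IP ratio divided by the input ratio mirrors the input, at 2.03 in bins 1 to 6 and 2.97 in bins 7 to 13. The IP level per unit of input in KO was 2.97 in bins 1 to 6 and 2.96 in bins 7 to 13. In WT it was 1.46 in bins 1 to 6 and 0.999 in bins 7 to 13. Bin by bin, the 2 fullest bins, 5 and 2, had input ratios of 1.20 and 1.24 and held 49 and 29 windows. Bin 6, with the highest ratio of 1.38, held 10 windows. Bins 8 and 13, with 0.826 and 0.873, held 21 each, and bin 10, with 0.753, held 2. The part of the input in the IP difference and in the number of windows was not tested.

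**Figure D2:**
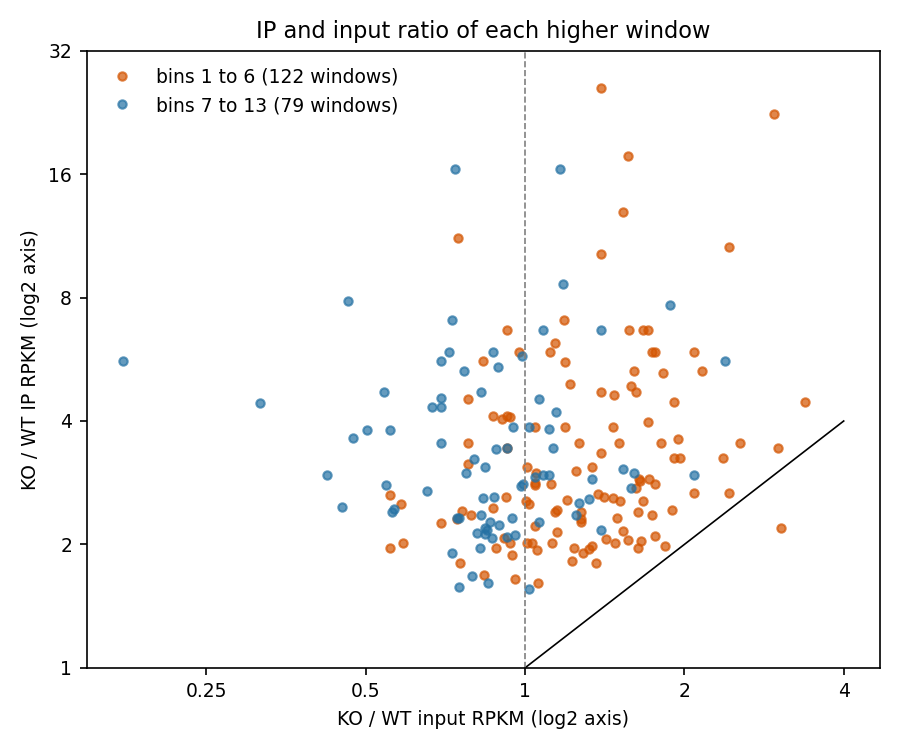
KO to WT ratio of IP RPKM against that of input RPKM for the 201 higher windows with WT IP reads, on log2 axes, coloured by position along chromosome 10. The solid line marks equal ratios and the dashed line an input ratio of 1. Windows of bins 1 to 6 lie mostly right of the dashed line and those of bins 7 to 13 mostly left of it, and 1 window falls below the line of equal ratios.

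In 1 of 201 windows the input ratio reached the IP ratio, against 17 of 1842 higher windows of the other autosomes. The choice of windows by their IP difference keeps such counts low. Input ratios of 1.5 or more were found in 49 windows of bins 1 to 6 and in 7 windows of bins 7 to 13. Input ratios of 0.667 or less were found in 4 windows of bins 1 to 6 and in 13 windows of bins 7 to 13.

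Of the 5 highest input ratios, among the 189 windows with at least 20 input reads in both libraries together, 4 were found in bins 2 to 5. The window from 39745001 to 39745500 held 34 KO and 7 WT input reads, a scaled ratio of 3.37 (1.47 to 9.02), beside 34 and 9 IP reads. The window from 39645501 to 39646000 counted 17 KO and 4 WT input reads, beside 19 KO and 1 WT IP reads. The others lay from 42335001 in bin 5 (35 KO and 8 WT input reads, a ratio of 3.04), from 12827501 in bin 2 (22 and 6) and from 127080501 in bin 13 (24 and 7). Of these 5, the window from 42335001 is the one whose input ratio exceeded its IP ratio, which was 2.20 (82 KO and 44 WT IP reads).

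Of the same 189 windows, the 5 with the lowest input ratios all lay in bins 7 to 9. The lowest of these, from 80869501 to 80870000, held 17 KO and 28 WT input reads, a ratio of 0.422 (0.217 to 0.798), beside 50 and 20 IP reads. The next began at 86520501 (0.452), 68767001 (0.472), 76086001 (0.502) and 74780001 (0.540). Their IP ratios were 2.46, 3.64, 3.80 and 4.71, in that order. Without the limit of 20 reads, the lowest ratios were those of the windows from 69033001 in bin 7 (1 KO and 4 WT input reads, 0.174) and 122239001 in bin 13 (5 and 11, 0.316), and the window from 120131501 in bin 13 (6 and 9, 0.463) was also among the 5 lowest.

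Higher windows of the other autosomes give a scale for these input ratios. Their summed input ratio was 0.992 (0.980 to 1.00), and that of chromosome 10 was 1.09 times as high (1.04 to 1.13). Against chromosome 6, with an input ratio of 1.23, that of chromosome 10 was 0.874 times as high (0.834 to 0.917). Against chromosome 11, with 1.05, the quotient was 1.03 and its interval held 1 (0.975 to 1.08). Chromosome 14, with 65 higher windows, had an input ratio of 1.14 (1.06 to 1.23). Without chromosomes 6 and 11 the other autosomes had an input ratio of 0.930, and chromosome 10 was 1.16 times that (1.11 to 1.20). In 125 bins of the other autosomes with at least 5 higher windows, the input ratio had a median of 0.940 and ran from 0.667 to 2.16. Of these, 13 reached 1.20, the lowest value of bins 2 to 6 of chromosome 10. Chromosome 6 held 6 of the 13, chromosomes 7 and 11 held 2 each, and chromosomes 2, 3 and 14 held 1 each. An interval wholly above 1 was found in 12 of the 125 bins, 8 of them on chromosome 6, and in 5 of 11 bins of chromosome 10.

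**Figure D3:**
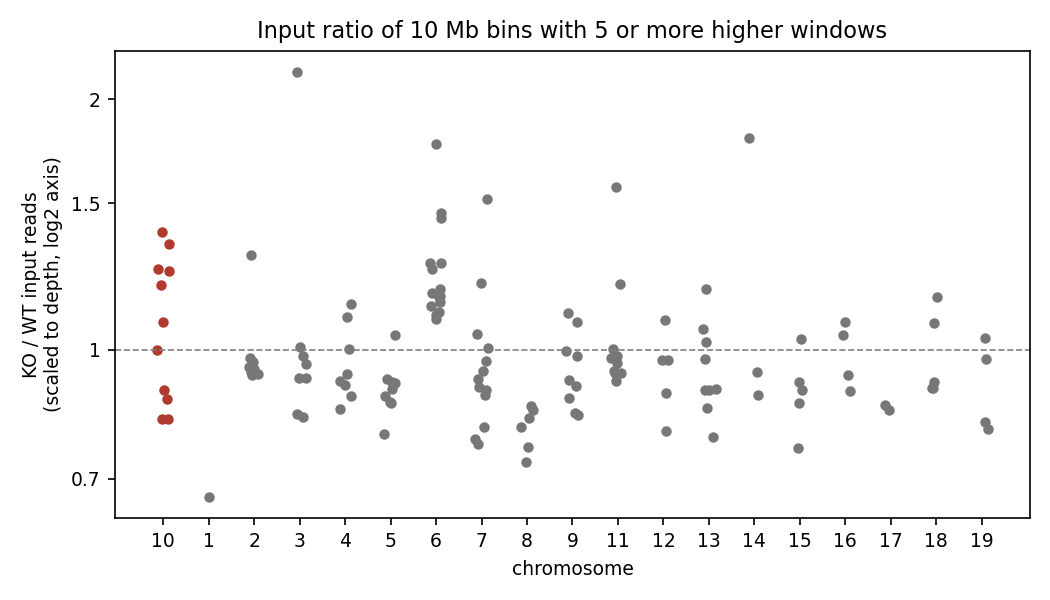
KO to WT ratio of input reads, scaled to library size on a log2 axis, for each 10 Mb bin with at least 5 higher windows, by chromosome. Each point is 1 bin, red for chromosome 10 (11 bins) and grey for the other autosomes (125 bins). The bins of chromosome 10 fall into values of 1.08 to 1.38 (bins 1 to 6) and 0.825 to 0.999 (bins 7 to 9, 12 and 13).

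The windows ranked first by p by the authors' deposited table were spread over the chromosome. An adjusted p under 0.1 stood in the authors' deposited table for 6 of the 216 windows. It stood for 67 of the 1958 higher windows of the other autosomes and, higher in KO, for 0.00240% of all windows tested. Where under 1, this adjusted p equals p times the number of windows tested, so it is not a false discovery rate. These figures describe the contrast that chose the windows. The 6 of chromosome 10 fell equally, 3 and 3, into bins 1 to 6 and bins 7 to 13. Such a p sets a single KO library against a single WT library and does not test the genotype. The leading window, from 79970001 to 79970500 in bin 8, counted 105 KO and 36 WT IP reads, and 109 KO and 67 WT input reads. Its adjusted p in the authors' deposited table was 3.08e-05, and the interval of its input ratio of 1.13 held 1 (0.826 to 1.56).

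The next 2 windows by p were very unlike in read depth. The window from 126966001 to 126966500 held 49 KO and 10 WT IP reads, with 54 KO and 38 WT input reads, an IP ratio of 5.77 beside an input ratio of 0.987. The window from 12810501 to 12811000 held 137 KO and 70 WT IP reads, with 68 KO and 37 WT input reads, ratios of 2.31 and 1.28. Their adjusted p-values in the authors' deposited table were 0.0168 and 0.0238. The remaining 3 of the 6 began at 50625001, with 49 KO and 11 WT IP reads, at 43409001, with 42 and 7, and at 110356501, with 39 and 6. Their input ratios were 1.82, 1.19 and 1.88, in that order, with intervals that all held 1.

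The next 4 windows by p had adjusted p-values of 0.122 to 0.519 in the authors' deposited table. That from 18182501 held 59 KO and 17 WT IP reads, that from 119276501 held 114 and 58, that from 86949001 held 45 and 10, and that from 56145001 held 47 and 12. Their input counts were 31 and 23, 64 and 47, 42 and 38, and 36 and 17, KO before WT. In the first 3 of these the input ratio was under 1, at 0.937, 0.946 and 0.768, and in the last it was 1.47.

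Many windows stood beside another. Joining windows with no base between them left 179 regions, of which 31 held more than 1 window and the longest measured 2000 bp. With gaps of up to 10000 bp, the 216 windows formed 154 clusters, of which 115 were single windows, 25 held 2, 10 held 3 and 4 held 4 to 6. The 39 clusters of at least 2 held 101 windows, with an input ratio of 1.06 (1.01 to 1.12), and the single windows had 1.09 (1.03 to 1.15). Neighbouring windows can share DNA fragments and are not independent. Of the 14 clusters with at least 3 windows, 6 of 7 in bins 1 to 6 had an input ratio above 1, and 2 of 7 in bins 7 to 13.

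The 2 largest clusters, with 6 windows each, differed in their input. The first spanned 42351501 to 42357000, in the densest bin, and held 205 KO and 70 WT IP reads and 99 KO and 47 WT input reads. Its ratios were 3.45 in the IP (2.62 to 4.59) and 1.46 in the input (1.02 to 2.12). Its 4 leftmost windows were contiguous and held 52, 49, 25 and 44 IP reads in KO and 24, 16, 6 and 18 in WT. Of the other 2, that from 42355001 held 11 KO and 0 WT IP reads, and that from 42356501 held 24 and 6.

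The second spanned 79806501 to 79820500, and held 287 KO and 151 WT IP reads and 281 KO and 245 WT input reads. Its ratios were 2.24 in the IP (1.83 to 2.75) and 0.797 in the input (0.669 to 0.950), so the input moved against the IP. All 6 of its windows had an input ratio under 1, from 0.695 to 0.875. Its window from 79820001 was also among the 5 with the highest WT IP level, with 123 KO and 90 WT IP reads. The next largest cluster, 5 windows from 126948501 to 126972500, held 297 KO and 161 WT IP reads, with an IP ratio of 2.17 and an input ratio of 0.819 (0.658 to 1.02). It contains the window from 126966001, second by p, and the window from 126964501, with 132 KO and 99 WT IP reads.

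The 5 windows with the highest WT IP level had IP ratios of 1.56 to 1.64, near the low end of the 216. The highest WT IP level was that of the window from 80923001 to 80923500, with an RPKM of 25.2 in KO and 16.2 in WT (144 and 109 reads). Its ratio of 1.56 was the smallest of all 216, beside an input ratio of 1.02 (0.614 to 1.71). The windows from 126964501 (1.57) and 30553501 (1.61) followed, both also among the 5 highest by WT IP level. The remaining one of the 5, from 18279001, held 131 KO and 94 WT IP reads. Just outside the choice, the listed lower windows with the ratio nearest to 1 began at 76059001 (119 KO and 223 WT IP reads, a ratio of 0.629), 55751001 (0.499) and 6095001 (0.462). The windows nearest the p limit, at 0.000979 in the authors' deposited table, began at 35203501, 80397001 and 120127001, each with 10 KO and 0 WT IP reads.

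At the other end, 15 windows had no WT IP read, or 6.94%, against 5.77% of the higher windows of the other autosomes. They held 10 to 16 KO IP reads each. The window from 21053501 held the most, 16, which is at least 6.29 times the WT level when 3 reads are taken as the WT limit of that window. The exact interval of its IP ratio, which also covers the counting error of the 16 reads, had a lower bound of 4.55. All 15 had WT input reads, from 2 to 35 per window, so these positions were present in the WT libraries. Their summed input ratio was 1.23 (1.01 to 1.51). The deepest WT input among them, 35 reads, stood in the window from 41994001, which had 15 IP and 45 input reads in KO and lay 36 bp from a Sirt6 peak.

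The higher windows of chromosome 10 lay at a median distance of 57767 bp from the nearest WT Sirt6 peak. The median was 34166 bp for higher windows of the other autosomes, 55564 bp on chromosome 6 and 19813 bp on chromosome 11. Distances over all windows of the chromosome were not computed. Whether the higher windows lay nearer to peaks or farther from them than other positions was therefore not tested. The list holds 695 Sirt6 peaks on chromosome 10, or 5.35 per Mb, against 5.76 per Mb on the other autosomes. Within 1000 bp of a peak lay 12 windows, or 5.56% (Wilson interval 3.21% to 9.46%), and 181 of 1958 windows of the other autosomes, or 9.24% (8.04% to 10.6%). These shares differed by -3.69 percentage points, and the Newcombe interval held 0 (-6.41 to 0.396). Within 5000 bp the difference was -7.17 percentage points (-11.3 to -1.88), with 26 windows on chromosome 10, or 12.0%, against 19.2%.

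**Figure D4:**
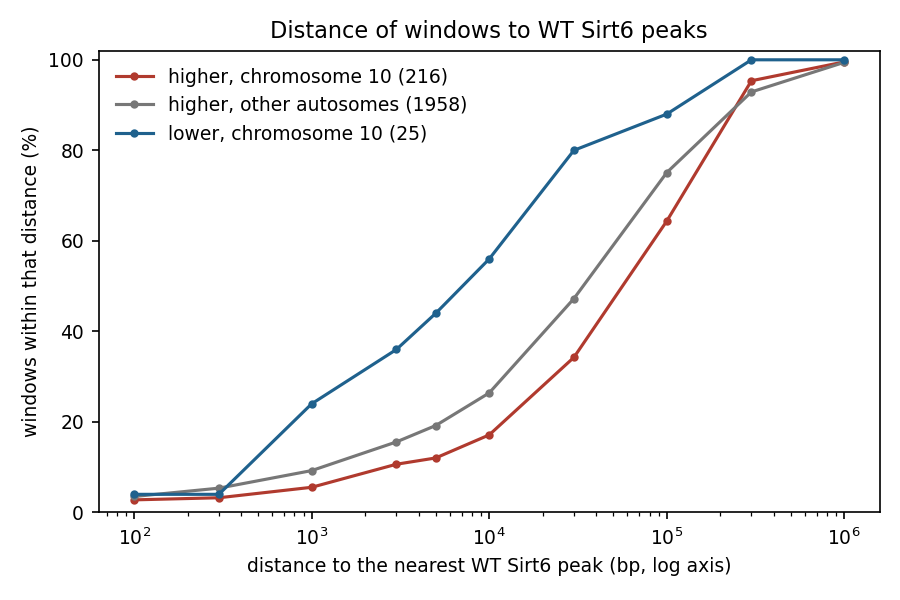
Share of windows (percent) that lie within a given distance (bp, log axis) of the nearest WT Sirt6 peak, for the 216 higher windows of chromosome 10, the 1958 higher windows of the other autosomes and the 25 lower windows of chromosome 10. At 5000 bp the shares are 12.0%, 19.2% and 44.0%, in that order. Of the 11 lower windows within 5000 bp, 8 belong to a single stretch beside 1 Sirt6 peak, and the share of lower windows without it is 17.6%.

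The distance differed along the chromosome. Of the 131 windows of bins 1 to 6, 3 lay within 1000 bp of a Sirt6 peak, or 2.29% (0.782% to 6.52%), and of the 85 windows of bins 7 to 13, 9 did, or 10.6% (5.67% to 18.9%). These shares differed by -8.30 percentage points (-16.8 to -1.81). Of the 9 windows, 3 were contiguous and lay beside 1 peak. The intervals here take windows as independent, so they may be too narrow. The difference between the 2 stretches was not computed with adjacent windows joined. The share of bins 1 to 6 lay 6.95 percentage points below that of the other autosomes (difference -6.95, interval -8.99 to -2.56), and that of bins 7 to 13 did not differ detectably from it (1.34, -3.76 to 9.76). Sirt6 peaks themselves were sparser in bins 1 to 6, with 200 peaks or 3.33 per Mb, than in bins 7 to 13, with 495 peaks or 7.07 per Mb. The part of that density in the difference was not tested. Bin 5, which held 49 higher windows, had 46 Sirt6 peaks and 1 window within 1000 bp of one.

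Of the higher windows, 5 overlapped a Sirt6 peak. The window from 110357001 held 22 KO and 3 WT IP reads, with 34 KO and 20 WT input reads, beside a peak from 110357264 to 110358180 with a fold enrichment of 11.3 over local background, the authors' own value as for the peaks below. Its 2 neighbours on the left, from 110356001 (35 KO and 14 WT IP reads) and 110356501 (39 and 6), lay 764 and 264 bp from that peak. Together the 3 windows form a contiguous cluster with an IP ratio of 4.92 (3.10 to 8.13) and an input ratio of 1.52 (1.02 to 2.33). They make up 3 of the 12 windows near a peak, so these 12 are not independent sites.

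The other 4 overlapping windows differed in their input. That from 39745001, with the highest input ratio on the chromosome, overlapped a peak of fold 5.66. That from 129979001 held 23 KO and 6 WT IP reads with an input ratio of 1.06, and its peak had a fold of 9.08. That from 120747001 held 14 KO and 1 WT IP reads, with 18 KO and 17 WT input reads. That from 74780001 held 20 and 5 IP reads and 28 and 36 input reads. The rest of the 12 began at 41994001, 79820001, 126633501, 22452001 and 84645501, at 36 to 896 bp. Summed over the 12, the input ratio was 1.10 (0.941 to 1.29), against 1.07 (1.03 to 1.12) in the 204 windows farther away. As a description, the IP ratio was 2.88 over the 12 and 2.54 over the 204. Seen from the peaks, 10 of the 695 Sirt6 peaks of chromosome 10 had a higher window within 1000 bp, or 1.44% (0.783% to 2.63%).

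Few of these windows lay at an acetylation peak, and the peak lists were short. Each of the 8 lists held 89 to 162 peaks on chromosome 10. The share over all windows of the chromosome was not computed, so a low share is not shown to be particular to these windows. None of the 216 overlapped a peak of any of the 8 H3K9ac and H3K56ac lists, and a count of 0 leaves room for a share of up to 1.39%. Of the windows of the other autosomes, 9 of 1958 overlapped one (0.460%). The 2 shares could not be told apart at these numbers (difference -0.460 percentage points, Newcombe interval -0.871 to 1.30). Within 1000 bp of a peak lay 2 windows, or 0.926% (0.254% to 3.31%). One was the window from 18279001, with a peak of all 8 lists within that distance. The other was the window from 22452001, 837 bp from a Sirt6 peak, with a peak of 1 list, untreated KO H3K56ac.

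Sirt6 is itself a gene of chromosome 10. Among the 25 lower windows of this chromosome, 8 had no KO read in either library, and they lay between 81085001 and 81090000. In these 8 windows the KO libraries held 0 reads, against 325 IP and 157 input reads in WT. Their input ratio was at most 0.0165 at the upper bound of its interval. Positions between 81086000 and 81087001 belong to none of the 8 windows, so a continuous stretch without KO reads is not shown. Whether this stretch belongs to the Sirt6 gene was not analysed here, for want of an annotation of the same build. The nearest higher window on the left, from 80930001, ended 154501 bp before the stretch, and the nearest on the right, from 82979501, began 1889501 bp after it. Within 2 Mb on either side lay 20 higher windows, with an IP ratio of 2.24 (2.03 to 2.47) and an input ratio of 0.851 (0.770 to 0.941). The higher windows around the stretch thus had less KO than WT input, as had most windows beyond 60 Mb. Of the lower windows, 6 of 25 lay within 1000 bp of a Sirt6 peak, and the share among higher windows was lower by 18.4 percentage points (difference -18.4, interval -38.0 to -5.35). Without the 8 windows of 0 KO reads, which held 3 of those 6, the difference was -12.1 percentage points and its interval just held 0 (-35.6 to 0.0109).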

How the data were processed

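CMS-IP reads were counted by the authors in 500 bp windows of mouse build mm9, which the submitters' processing notes name, and the file headers name columns of counts, RPKM, edgeR's log2 fold change with its p-value and adjusted p-value, and log2 abundance, all computed by the authors. Of the listed windows, each had a deposited p-value under 0.001. For these libraries the aligner is not stated. The number of windows tested was taken from adjusted p over p, library sizes from counts and RPKM, and chromosome lengths from the table's row numbers. Sirt6 and acetylation peaks were called per library with MACS2 2.0.10 with q limited to 0.01, as the file headers record, Sirt6 against whole-cell extract and acetylation without control; those deposited lists give a pileup signal, −log10 p and −log10 q, and fold enrichment. The number of unused columns with per-sample values was 0.

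Ratios were computed from summed counts scaled to library size with exact (Clopper-Pearson) intervals, quotients of ratios with intervals from the log-scale standard error of the counts, shares with Wilson and differences of shares with Newcombe intervals. A count of 0 was given the limit of 3 counts. A distance is that from a window to the nearest peak edge, and 0 where they overlap. Reads were not checked for molecular identity, so intervals cover counting error only. The intervals of ratios and of their quotients, the distances and the clusters were tested on simulated data. The simulated counts were independent, so shared fragments and differences between libraries were not covered. The Wilson and Newcombe intervals were not simulated.

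Windows were named by rule: the 10 smallest p, the 3 largest clusters, 5 extremes of input at 20 or more input reads, the 10 nearest to a Sirt6 peak, the 5 highest WT IP levels, windows with 0 WT IP reads and those nearest the limits. Beyond that rule, the remaining windows within 1000 bp of a Sirt6 peak, the contiguous cluster at one and the lowest input ratios under 20 reads were named after their values were seen. The members, rules and lists were chosen with earlier results of these data known. Software versions were scipy 1.17.1, pandas 2.3.3, numpy 2.4.6 and matplotlib 3.10.9 under Python 3.11.15.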

Additional observations from a re-analysis of the deposited data

How the results depend on the processing

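Of 32 alternatives, 26 left the value within the interval of the reported one (for counts, within 1.5 times) and 6 did not. No result with an interval clear of 1 (ratios) or 0 (differences) changed direction. An adjusted p under 0.1 left 6 of the 216 windows. The median of single-window IP ratios was 2.89 in place of 2.56, and the input ratio was 1.19 when set relative to all listed windows of the autosomes other than chromosomes 1, 10 and 14. The share of windows at Sirt6 peaks was 2.31% for overlap and 12.0% within 5000 bp in place of 5.56% within 1000 bp, and the difference from the other autosomes was -7.17 percentage points within 5000 bp. That difference was 0.384 (-1.64 to 3.89) with Sirt6 peaks of −log10 q of at least 10 and -4.75 (-7.67 to -0.570) without chromosomes 6 and 11, so it depends on the peaks and chromosomes taken; the cause was not tested. The quotient of input ratios at 60 Mb, 1.41, ran from 1.36 with the boundary at 50 Mb to 1.52 for medians of single windows; it and its alternatives were chosen after seeing the data. In 5 Mb bins with at least 5 windows, all 11 of the first 60 Mb had an input ratio above 1, the lowest 1.02, and of the 6 beyond 60 Mb 1 did, with 1.03 at 115 to 120 Mb. Windows have a median of 27 KO and 17 WT input reads, so the input ratio of a single window is poorly known. No paired analysis was possible because each group held 1 library.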
